A study of Mus musculus with 18 samples.

Results

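The complement genes C1qa, C1qb, C1qc, C1ra, C3, C4b, C3ar1, C5ar1 and Serping1 were followed in mouse carotid artery before and after wire injury. A wire passed through the vessel strips its endothelium, and by the study's account its deep form of injury also disrupts the internal elastic lamina. These 9 genes were chosen by symbol among the 35655 genes of the count table, and all 9 were among the 10312 genes that passed the filter on low counts. The vessels were from wild-type (WT) C57/BL6 mice. The day 0 (pre-injury), day 7 and day 21 groups held 4 libraries each, and the day 14 and day 28 groups 3 each, days being counted from injury. Each library held RNA of laser-dissected sections, which by the study's methods held outer elastic lamina and neointima. Neointima is the tissue that grows on the inner side of an injured artery. The day 0 vessels were uninjured, and what was cut from them is not described separately. Comparisons with day 0 may therefore set different tissue side by side. Only the 3′ ends of polyadenylated transcripts were sequenced, and counts are molecules after removal of PCR duplicates. Values are given as CPM, the count scaled to a common normalised total over the genes tested. Vessels with a thrombus had been left out by the study. The labels give 3 mouse numbers to a day 0 and a day 21 library alike, and do not give the side of a vessel. By the study's methods the left carotid was injured and the right one was its control, so a day 0 vessel may be the uninjured side of an injured mouse.

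Complement is a cascade of plasma and tissue proteins that marks cells and debris for removal. In the classical pathway the recognition molecule C1q, built from the chains encoded by C1qa, C1qb and C1qc, carries the proteases C1r and C1s, which cleave C4 and C2 so that C3 is cleaved in turn. The released fragments C3a and C5a act on the receptors encoded by C3ar1 and C5ar1, which are known from myeloid cells, and the C1 inhibitor encoded by Serping1 blocks C1r and C1s. In many tissues macrophages are a main source of C1q, whereas fibroblasts make C1r, C1s, C3, C4 and the C1 inhibitor.

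The genes of the C1q chains lie side by side on the minus strand of chromosome 4 within 20153 bases (chr4:136606009-136626161, GRCm39), with C1qb at chr4:136606009-136613511, C1qc at chr4:136616466-136620376 and C1qa at chr4:136623223-136626161. The 250 bases before the start of C1qb, C1qc and C3ar1, which moved together below, and of C3, which did not move with them, are given from RefSeq on GRCm38.p6, 5′ to 3′ on the strand of the gene, at chr4:136886201-136886450, chr4:136892915-136893164, chr6:122856158-122856407 and chr17:57228137-57228386 (all minus strand). RefSeq's table held 6 of the 9 genes, without C1qa, C4b and Serping1. Capitals mark matches on either strand to GAGGAA (letters of the PU.1 motif), TTGCNNAA (C/EBP), TGANTCA (AP-1) or TTCNNNGAA (STAT).
C1qb: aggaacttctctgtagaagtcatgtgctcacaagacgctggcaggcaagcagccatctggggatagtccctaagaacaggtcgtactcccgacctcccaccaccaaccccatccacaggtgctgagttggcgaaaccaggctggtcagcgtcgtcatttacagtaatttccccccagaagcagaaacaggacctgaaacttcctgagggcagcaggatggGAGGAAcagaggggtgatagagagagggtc
C1qc: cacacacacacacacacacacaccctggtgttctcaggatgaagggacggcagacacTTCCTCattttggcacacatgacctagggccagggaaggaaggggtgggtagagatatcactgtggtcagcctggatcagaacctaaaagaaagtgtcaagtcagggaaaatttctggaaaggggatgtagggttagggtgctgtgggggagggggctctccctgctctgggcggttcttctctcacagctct
C3ar1: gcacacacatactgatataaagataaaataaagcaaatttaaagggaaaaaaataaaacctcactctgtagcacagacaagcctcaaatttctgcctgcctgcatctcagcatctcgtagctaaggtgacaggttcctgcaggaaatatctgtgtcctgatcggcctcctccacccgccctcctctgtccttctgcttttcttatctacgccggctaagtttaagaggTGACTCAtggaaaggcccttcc
C3: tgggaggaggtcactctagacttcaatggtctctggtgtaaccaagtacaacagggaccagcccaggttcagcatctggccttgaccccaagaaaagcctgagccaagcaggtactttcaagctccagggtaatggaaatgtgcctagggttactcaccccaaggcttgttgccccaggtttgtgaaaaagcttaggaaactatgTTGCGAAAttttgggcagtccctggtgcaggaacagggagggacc
GAGGAA stood 30 bases before the start of C1qb and, on the other strand, 193 bases before that of C1qc, and 23.2% of 32851 promoter entries of this length held it. TGANTCA stood 22 bases before the start of C3ar1 (6.75% of entries) and TTGCNNAA 45 bases before that of C3 (9.56%). TTCNNNGAA was found in none of the 6 promoters held for these genes (7.02% of entries). The promoters of C5ar1, which took a course like that of C3ar1, and of C1ra are not shown and held none of these motifs. These are matches of letters, not binding sites.

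Libraries held 440675 to 878310 counts, so that 1 count was worth 1.18 to 2.33 CPM. Samples of a group carry their own mouse numbers. The smooth muscle list of 6 genes, which marks the carotid media, summed to 31502 to 36862 CPM on day 0 and 1489.7 to 6973 on day 7, when 6 of 6 genes were lower, and to 19945 to 28116 on day 28. A list of 12 macrophage markers, of which 11 were tested, summed to 148 to 360.3 CPM on day 0, 3884 to 5233 on day 7, 910.2 to 2239 on day 14, 1256 to 2636 on day 21 and 531 to 840.5 on day 28, and 10, 10, 10 and 2 of its genes were higher on the later days than on day 0. Lyz2 made up most of the macrophage sum on day 7 (2686 CPM on average), and Mpeg1 had no count on day 0. Mertk, the tested marker not called on day 7, had a lower mean then (10.6 CPM) than on day 0 (32.0 CPM). Cd163, which was not tested, also had a lower mean on day 7 (2.28 against 13.9 CPM). The fibroblast list of 8 genes (7 tested) summed to 2355 to 3425 CPM on day 0 and 959 to 2247 on day 7, with 2 genes higher and 3 lower on day 7. The make-up of this sum shifted between days. Gsn had means of 1465, 291 and 618 CPM on days 0, 7 and 21, and Lum 119, 562 and 1837. Of the neutrophil list, 5 of 11 genes were tested and 4 were higher on day 7, and of the endothelial list 3 of 6 were higher and 1 lower. A pair of libraries stood apart in genes used below. Day 7 replicate 3 had a fibroblast sum of 959 CPM against 2085, 2205 and 2247 in the other day 7 libraries, and day 0 replicate 1 had the highest macrophage sum of its day (360.3 CPM). Fold changes of the 9 genes against day 0 that moved by more than 1.5 times without day 0 replicate 1 are given with and without it.

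Each later day was compared with day 0, to ask how the injured vessel differed from the uninjured one, and days 14, 21 and 28 with day 7, to ask what moved afterwards. All 18 libraries entered a single model, and genes were called where edgeR's quasi-likelihood test gave a p under 0.05 once adjusted for 10312 genes by the Benjamini-Hochberg method. On day 7, 5 of the 9 genes were higher and 1 was lower than on day 0, where 11.3% of all genes tested were higher and 8.53% lower. On day 14, 5 of 9 were higher (4.8% of all genes), on day 21 it was 6 of 9 (5.92%) and on day 28 1 of 9 (0.97%). All libraries of the later day lay above all of day 0 for 5, 6, 5 and 4 of the 9 genes on days 7, 14, 21 and 28, and for 13.6%, 10.7%, 9.31% and 4.88% of all genes. The median log2 fold change of the 9 genes was 3.59, 2.59, 2.52 and 1.71 on days 7, 14, 21 and 28, beside 0.07, 0.05, 0.07 and -0.01 over all genes. Without day 0 replicate 1 and day 7 replicate 3, a setting chosen after the data were seen, 7, 8, 8 and 6 of the 9 genes were changed, while over all genes 1489, 562, 821 and 137 were called, against 2041, 641, 912 and 138 with all libraries. The day 28 count moved with the processing, with 5 genes called by DESeq2, 0 with the mouse number as a block and 4 without day 0 replicate 1. Over all genes these settings called 318 of 12067, 3 of 10312 and 141 of 10161. In the block fit each mouse number that occurs on both day 0 and day 21 has its own term. Comparisons of days 7, 14 and 28 with day 0 then rest mainly on day 0 replicate 1.

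**Figure D1:**
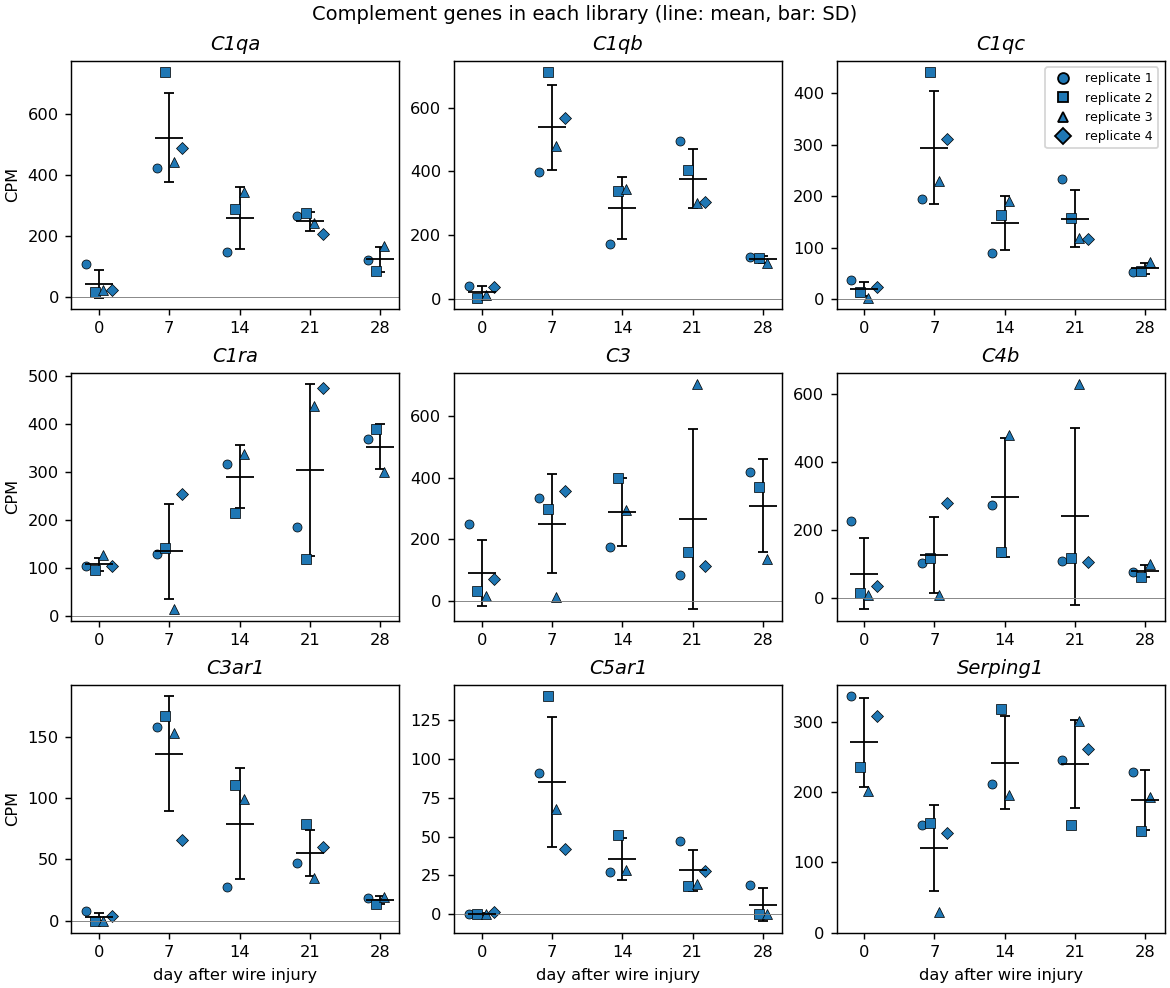
CPM of the 9 complement genes (vertical axes, 1 panel per gene) in each library by day after wire injury (horizontal axes), where points are libraries with a marker for each replicate number, horizontal lines are means and bars are SD (n = 3 or 4). C1qa, C1qb, C1qc, C3ar1 and C5ar1 stood highest on day 7 by their means, C3 and C4b spread widely within days, and day 7 replicate 3 was the lowest library of its day for C1ra, C3, C4b and Serping1.

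The chains of C1q rose together on day 7 and were still above day 0 on days 14 and 21. C1qb was at 38.7, 3.59, 10.4 and 35.4 CPM in the 4 day 0 libraries and at 397, 712, 480.4 and 567 in those of day 7. It stood at 173, 337 and 344 CPM on day 14, 496, 406, 301 and 305 on day 21 and 132, 129 and 112 on day 28. Every library of each later day thus lay above every day 0 library, and C1qb was the 1 member called on day 28. Against day 0 it rose on day 7 (log2 fold change 4.62 with an SE of 0.43, adjusted p = 9.5e-08), day 14 (log2 fold change 3.70 with an SE of 0.44, adjusted p = 6.0e-06), day 21 (log2 fold change 4.10 with an SE of 0.43, adjusted p = 9.3e-07) and day 28 (log2 fold change 2.50 with an SE of 0.44, adjusted p = 0.00472). The call of day 28 was lost in a fit of only these 2 days (adjusted p = 0.0694) and with the mouse number as a block (adjusted p = 0.159, range 1.1e-10 to 0.159 over 26 alternatives). In bulk tissue fewer cells of a type and less RNA per cell cannot be told apart.

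C1qa was at 110.2, 17.9, 23.8 and 23.6 CPM on day 0 and 422, 737, 445 and 489 on day 7. It was at 149, 289 and 346 CPM on day 14, 267, 276, 243 and 207 on day 21 and 122, 86.0 and 168 on day 28. Day 0 replicate 1 reached the range of day 28, and the other day 0 libraries lay below every later library. C1qa rose on day 7 (log2 fold change 3.59 with an SE of 0.43, adjusted p = 2.0e-06), day 14 (2.59, adjusted p = 5.6e-04) and day 21 (2.52, adjusted p = 4.5e-04). Dropping day 0 replicate 1 moved these values to 4.58, 3.58 and 3.51. With the mouse number as a block, the adjusted p of day 14 was 0.0506 (range 1.2e-13 to 0.0506 over 26 alternatives). On day 28 its log2 fold change was 1.53 (adjusted p = 0.0928), and it became 2.52 when day 0 replicate 1 was dropped (called, adjusted p = 7.2e-04, range 4.2e-04 to 0.537 over 26 alternatives).

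C1qc was at 37.2, 14.3, 2.98 and 23.6 CPM on day 0 and 194, 440.3, 229 and 312 on day 7. On days 14, 21 and 28 its libraries ranged from 89.6 to 190.5, 116 to 233 and 53.1 to 71.9 CPM, on each day above every day 0 library. It rose by log2 fold changes of 3.90 on day 7 (SE 0.44, adjusted p = 8.1e-07), 2.91 on day 14 and 3.00 on day 21, the later days with adjusted p of 1.8e-04 and 7.9e-05. On day 28 it was not called (1.61, adjusted p = 0.0876), but it was without day 0 replicate 1 (adjusted p = 0.0343, range 0.0027 to 0.423 over 26 alternatives). Exons of C1qb and C1qc overlap Gm69251 on the other strand, those of C3 overlap Gm65552 and those of C4b Gm65055, and the use of strand in the counting is not given in the sources used here.

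Compared directly with day 7, all 3 C1q genes were lower on day 28, by log2 fold changes of -2.06 for C1qa (adjusted p = 0.00276), -2.11 for C1qb (adjusted p = 0.00124) and -2.29 for C1qc (adjusted p = 0.00101). These calls held under all 26 alternatives. In each case every day 28 library lay below every day 7 library, as was so for 14.4% of all genes. With C3ar1 and C5ar1 they made 5 of 9 genes lower on day 28 than on day 7, against 8.05% of all genes tested. On days 14 and 21 edgeR called 0 of the 9 genes against day 7, where 1.66% and 7.26% of all genes were called. DESeq2 called 0 and 1, and limma on the deposited normalised values 0 and 0.

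The C1q levels moved with those of the macrophage markers. As a share of the summed CPM of the 12 markers, C1qb came to 2.42% to 13.5% in the day 0 libraries, 10.2% to 13.6% in those of day 7, 15.1% to 19.0% on day 14, 13.1% to 30.8% on day 21 and 13.3% to 24.9% on day 28. The ratio of C1qa was 16.5% ± 9.64 (SD, n = 4) on day 0, with a range that held those of day 7 (10.8% to 14.1%) and day 28 (15.2% to 23.0%), which did not overlap each other. These ratios were not tested. Across the 18 libraries log2 CPM of C1qa, C1qb and C1qc had Pearson correlations of 0.96, 0.95 and 0.95 with the log2 sum of the markers, and of 0.77, 0.69 and 0.63 after the mean of each day was subtracted, where both values come from the same library and its depth. The part of the macrophage markers in the rise of C1q was not tested.

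**Figure D2:**
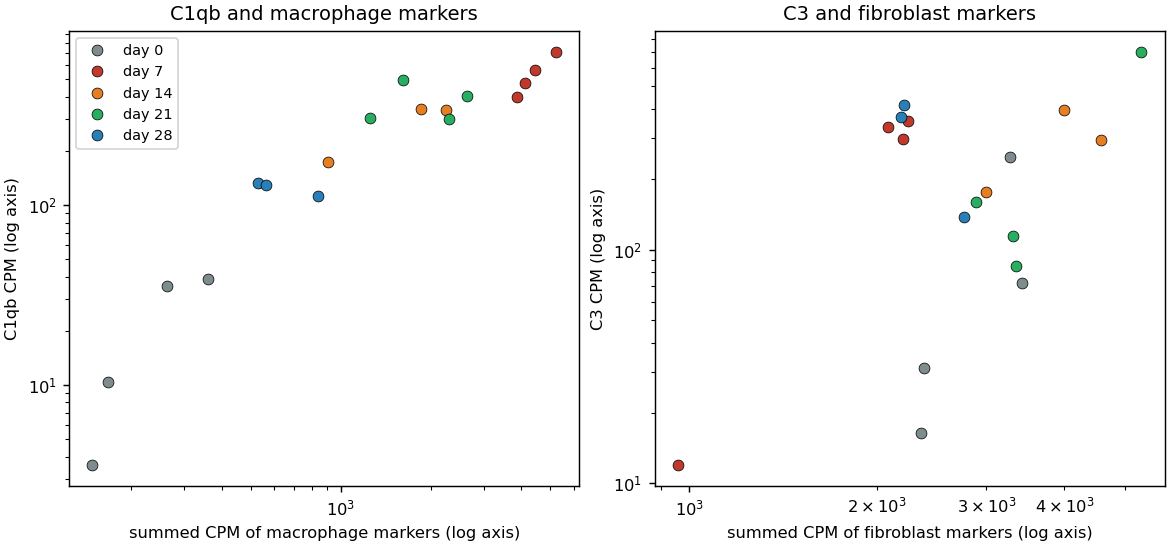
Left, C1qb CPM against the summed CPM of 12 macrophage markers, and right, C3 CPM against the summed CPM of 8 fibroblast markers, with 1 point per library coloured by day and all axes on a log scale. On the left the libraries lie along a rising line from day 0 to day 7, and on the right the days are mixed and day 7 replicate 3 stands lowest on both axes.

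The anaphylatoxin receptors took a like course, with their highest means on day 7. C3ar1 (chr6:122823393-122833122), the receptor of C3a, had 5, 0, 0 and 3 counts in the day 0 libraries and was at 158, 167, 153 and 66.2 CPM on day 7. It was at 27.2, 111 and 99.2 CPM on day 14, 47.3, 78.7, 34.5 and 60.5 on day 21 and 18.7, 13.2 and 19.2 on day 28. All later libraries lay above all day 0 libraries. C3ar1 rose on day 7 (log2 fold change 5.53 with an SE of 0.64, adjusted p = 1.1e-06), day 14 (4.75, adjusted p = 4.4e-05) and day 21 (4.22, adjusted p = 1.5e-04). Without day 0 replicate 1 these were 6.49, 5.71 and 5.18. The day 28 value was 2.55 (adjusted p = 0.0853), and 3.51 in that fit (adjusted p = 0.039, range 0.00438 to 0.572 over 26 alternatives). Between days 28 and 7 it fell by 2.98 on the log2 scale (adjusted p = 0.00103).

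C5ar1 (chr7:15980668-15993465), the receptor of C5a, had 1 count in the 4 day 0 libraries together. It was at 90.8, 140.2, 67.8 and 42.0 CPM on day 7, 27.2, 51.2 and 28.7 on day 14 and 47.3, 18.2, 19.7 and 27.9 on day 21. On day 28, replicate 1 held 13 counts (18.7 CPM) and the other two libraries 0, so that the day's mean rests on 1 library. The ratio of summed normalised counts to day 0 was 248-fold with a 95% counting interval of 44.0 to 9857 on day 7, 102-fold with a 95% counting interval of 17.7 to 4092 on day 14 and 90.3-fold with a 95% counting interval of 15.7 to 3613 on day 21, intervals that cover counting error only. The calls gave adjusted p of 9.1e-06, 6.8e-04 and 8.7e-04, and day 28 was not called (adjusted p = 0.149). On day 28 the level was lower than on day 7 (log2 fold change -3.67, adjusted p = 0.00325), a call that held under all 26 alternatives, as did that of C3ar1. Correlations with the macrophage sum over the 18 libraries were 0.96 for C3ar1 and 0.87 for C5ar1, and within days 0.69 and -0.10, and the part of these markers in the rise of the receptors was not tested.

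C1ra (chr6:124489364-124500402), which encodes the protease C1r, was not called on day 7 (0.33, adjusted p = 0.703) and had higher means afterwards. It was at 104, 95.6, 128 and 105 CPM on day 0 and 129.99, 142, 14.0 and 255 on day 7. On day 14 it was at 318, 215 and 338 CPM, on day 21 at 187, 119, 437 and 477 and on day 28 at 371, 390.3 and 300.4. The libraries of days 14 and 28 all lay above those of day 0, and those of day 28 also above those of day 7 (9.74% of all genes). C1ra was called on day 21 (log2 fold change 1.49 with an SE of 0.46, adjusted p = 0.0441), a call that was lost in 13 of 26 alternatives, among them the mouse number block (adjusted p = 0.0987) and the fit without day 21 replicate 4 (adjusted p = 0.163, range 1.9e-05 to 0.163 over 26 alternatives). It was not called on day 14 (1.43, adjusted p = 0.09) or day 28 (1.71, adjusted p = 0.0876), but without day 7 replicate 3, in which it was at 14.0 CPM, the adjusted p was 0.0171 on day 14 (range 1.4e-04 to 0.272 over 26 alternatives) and 0.0135 on day 28 (range 1.2e-05 to 0.23 over 26 alternatives). C1rb, a close copy, had 2 counts in all libraries, and counts of C1ra may include reads that both share.

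C1s1, which encodes the partner protease C1s and lies on the opposite strand 6895 bases from the end of C1ra, was called on more days than C1ra. It stood at 57.8 ± 9.33 CPM (SD, n = 4) on day 0, 42.5 ± 20.6 CPM (SD, n = 4) on day 7, 164 ± 28.6 CPM (SD, n = 3) on day 14, 151 ± 64.0 CPM (SD, n = 4) on day 21 and 113 ± 29.1 CPM (SD, n = 3) on day 28. It rose on days 14 and 21 against day 0 (log2 fold changes of 1.50, adjusted p = 0.0117, and 1.38, adjusted p = 0.0121). It was higher than on day 7 on days 14, 21 and 28, by 1.93, 1.81 and 1.40 (adjusted p = 0.00852, 0.00206 and 0.0135). Each of these calls of C1s1 was lost in 1 or 2 of 26 alternatives. Exons of C1s1 overlap Gm16567 on the other strand.

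C3 (chr17:57510964-57535155), the protein on which all pathways of complement meet, spread widely within days. It was at 249, 31.1, 16.4 and 72.2 CPM on day 0 and 335, 297, 12.0 and 355 on day 7. On day 14 it was at 176, 397 and 294 CPM, on day 21 at 85.2, 159, 702 and 114 and on day 28 at 418, 370.5 and 137. Day 0 replicate 1 lay among the later libraries, and day 7 replicate 3 below all 4 day 0 libraries. The log2 fold changes against day 0 were 1.45, 1.66, 1.54 and 1.75 on days 7, 14, 21 and 28, with SEs of 0.73 to 0.77, and none was called (adjusted p = 0.19, 0.264, 0.22 and 0.281 from edgeR). Without day 0 replicate 1 they were 2.63, 2.84, 2.72 and 2.94, and the first 3 days were called (adjusted p = 0.0204, 0.0405 and 0.0344). The range of adjusted p over 26 alternatives was 1.4e-05 to 0.666 on day 7, 4.0e-06 to 0.695 on day 14 and 8.9e-06 to 0.855 on day 21. The day 21 value also rested on replicate 3, without which it was 0.34.

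C4b (chr17:34947354-34962912), a component C4 gene, showed the same libraries at its extremes. It was at 228, 13.2, 8.94 and 34.1 CPM on day 0 and 101, 117, 9.97 and 279 on day 7. It reached 274, 134 and 481 CPM on day 14, 109, 117, 629.8 and 105 on day 21 and 77.6, 62.8 and 99.1 on day 28. Its log2 fold changes against day 0 were 0.86, 2.08, 1.77 and 0.18 on the 4 later days, none of them called (adjusted p = 0.516, 0.156, 0.171 and 0.954). Without day 0 replicate 1 days 7, 14 and 21 were called, at 2.75, 3.97 and 3.66 (adjusted p = 0.0163, 0.00515 and 0.0061, with ranges of 0.00316 to 0.976, 1.7e-08 to 0.568 and 8.1e-07 to 0.735 over 26 alternatives). Its day 28 value moved from 0.18 to 2.07 in the same fit and was not called (adjusted p = 0.211, range 0.141 to 1 over 26 alternatives). The day 21 value without replicate 3 of that day was 0.61. C4a, a near-identical gene on the same chromosome, has no row under that symbol in the count table, so counts of C4b may include its reads.

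After the mean of each day was subtracted, C3 and C4b had a Pearson correlation of 0.86 over the 18 libraries, C3 and Serping1 0.80, C1ra and Serping1 0.78 and C3 and C1ra 0.65, in log2 CPM that share each library's depth and dissection. With the log2 sum of the 8 fibroblast markers these correlations within days were 0.82 for C3, 0.81 for C4b, 0.83 for Serping1 and 0.73 for C1ra, beside 0.39, 0.36 and 0.40 for the C1q genes. In day 7 replicate 3, the library with the lowest fibroblast sum, C3, C4b, C1ra and Serping1 were at 12.0, 9.97, 14.0 and 29.9 CPM, while C1qa, C1qb and C1qc stood within the range of the other day 7 libraries. Day 21 replicate 3, the highest library for C3 and C4b, also had the highest fibroblast sum (5319.9 CPM). Its smooth muscle and neutrophil sums (21589 and 603.5 CPM) were the highest of day 21 too, but its macrophage and endothelial sums were not. In day 0 replicate 1 the fibroblast sum was 3273 CPM, and that of replicate 4, with 72.2 CPM of C3, was 3425. The part of the fibroblast content in the spread of these genes was not tested.

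Serping1 (chr2:84595705-84620873), the gene of the C1 inhibitor, was the member that fell. It was at 336, 236, 201 and 308 CPM on day 0 and 153, 156, 29.9 and 142 on day 7, with every day 7 library below every day 0 library, an order seen in 9.71% of all genes. On day 14 it was at 211, 318 and 196 CPM, on day 21 at 246, 153, 301 and 261 and on day 28 at 228, 144 and 193, overlapping with day 0 on each day. The fall on day 7 was called (log2 fold change -1.16 with an SE of 0.34, adjusted p = 0.0171). It was not called with the mouse number block (adjusted p = 0.135), without day 0 replicate 1 (adjusted p = 0.0507) or without both libraries that stood apart (-0.76, adjusted p = 0.0877, range 0.0014 to 0.135 over 26 alternatives). On days 14, 21 and 28 the log2 fold changes were -0.16, -0.17 and -0.52 (adjusted p = 0.9, 0.836 and 0.537). As a share of the fibroblast sum, whose make-up differed between these days, Serping1 was at 8.54% to 10.3% in the day 0 libraries and 3.12% to 7.34% on day 7. This ratio was not tested.

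**Figure D3:**
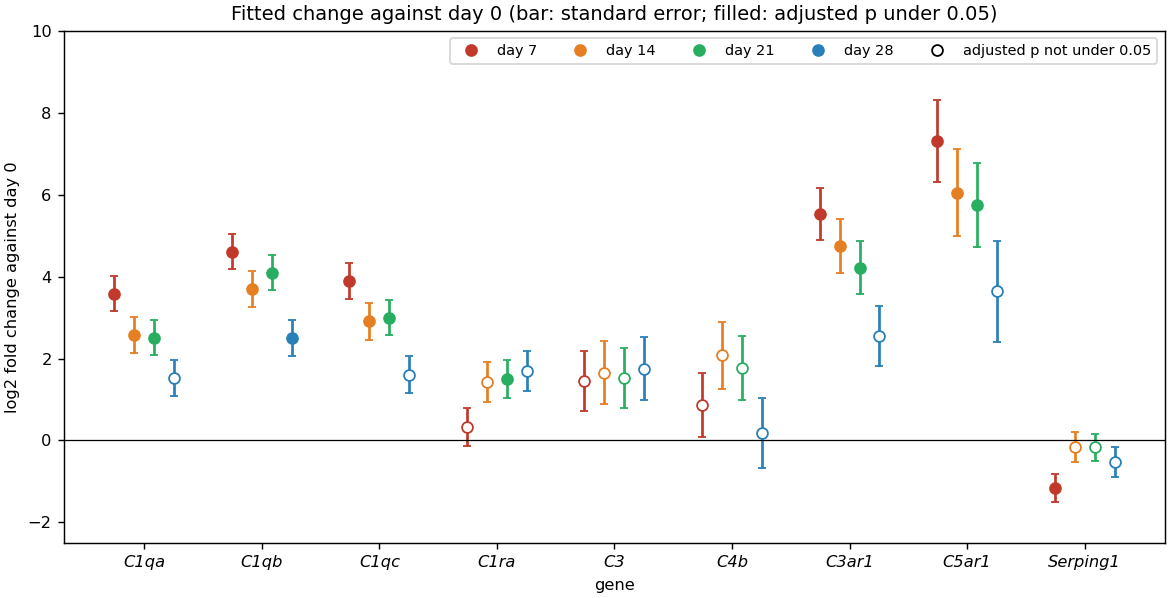
Fitted log2 fold change against day 0 (vertical axis) of each gene (horizontal axis) on days 7, 14, 21 and 28, with bars for the standard error and filled points for an adjusted p under 0.05 from edgeR. The C1q and receptor genes lie highest on day 7, C1ra and C3 show no such peak, and the filled point below 0 is Serping1 on day 7. The day 0 level behind C5ar1 is 1 count.

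The other genes of the pathway were taken from a list of 61 complement genes that includes the 9. The table held 60 of them, 49 had a count and 25 passed the filter. On day 7, 10 of the 25 were higher and 4 lower than on day 0, on day 14 11 were higher, on day 21 13 and on day 28 2. Of all genes tested, 11.3% were higher and 8.53% lower on day 7, and 4.8%, 5.92% and 0.97% higher on days 14, 21 and 28. With the mouse number as a block, 7 were called on day 14 and 0 on day 28, while the calls over all genes fell to 199 and 3. The median log2 fold change of the 25 was 1.45, 1.66, 1.77 and 0.97 on these days, beside 0.07, 0.05, 0.07 and -0.01 over all genes. Without the libraries that stood apart, the numbers changed were 14, 13, 14 and 7. Of the 6 genes of the terminal pathway, C6, C7, C8a and C8b were listed at 0 in every library, C8g had 7 counts in all and C9 2, so that none was tested.

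The receptors of complement fragments on leukocytes moved with C3ar1 and C5ar1. Itgam and Itgax, the alpha chains of the receptors CR3 and CR4 for cleaved C3, had no count on day 0, and on day 7 Itgam was at 94.4, 77.3, 51.8 and 45.2 CPM and Itgax at 37.4, 59.3, 33.9 and 24.2. By the lower 95% counting limit of the summed counts, the rise by day 7 came to at least 52.8-fold for Itgam (higher in 4 of 4 libraries) and 30.0-fold for Itgax. On day 21 these limits were 18.2-fold and 28.5-fold. Their shared beta chain Itgb2 had 3 counts on day 0 and was at 107 ± 32.7 CPM (SD, n = 4) on day 7, a ratio of 105-fold with a 95% counting interval of 35.4 to 511. Cd93, named for an early link to C1q and expressed by endothelial and myeloid cells, stood at 57.5 ± 41.3 CPM (SD, n = 4) on day 0 and 458 ± 228 CPM (SD, n = 4) on day 7 (log2 fold change 2.99 with an SE of 0.49, adjusted p = 8.6e-05), with its highest level in day 7 replicate 3 (773 CPM). All 4 were higher than on day 0 on days 14 and 21 too. For Cd93 these later calls (adjusted p = 0.0188 and 0.0303) were lost in 5 and 6 of 26 alternatives, among them the fit without day 0 replicate 1. From day 7 to day 28 all 4 fell (adjusted p at most 0.0116). C1qbp, a mitochondrial protein named for binding C1q, was not called against day 0 and was lower on days 21 and 28 than on day 7 (-1.64 and -1.34, adjusted p = 0.0043 and 0.0182). Reads of Itgam can also come from Gm49368, and those of C1qbp from Rpain, whose exons overlap.

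In the alternative pathway, Cfp, which encodes properdin, was at 32.8, 4.78, 8.94 and 5.25 CPM on day 0 and 185, 167, 201 and 229 on day 7 (log2 fold change 3.94 with an SE of 0.59, adjusted p = 2.6e-05, or 4.93 when day 0 replicate 1 was dropped), and it had come down by day 28 (-3.12 against day 7, adjusted p = 0.0013). Cfb, the gene of factor B, was not called on any day (adjusted p = 0.352 to 0.905 against day 0). Reads of Cfb can also come from Gm20547, whose exons overlap on the same strand. Cfd, the gene of factor D or adipsin, had no count in the libraries of days 0 and 7. It was at 4.80, 0 and 0 CPM on day 14, 69.8, 54.5, 141 and 4.65 on day 21 and 93.4, 0 and 102 on day 28. The lower 95% counting limits of the summed counts against day 0 were 57.7-fold on day 21 and 52.6-fold on day 28 (adjusted p = 0.00287 and 0.0164 from edgeR). The 3 day 28 libraries of Cfd included 1 at 0. The call of that day was lost in 5 of the 25 alternatives that held Cfd, DESeq2 among them.

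Among the regulators, Cd59a fell on day 7 as Serping1 did. Cd59a, which blocks the last step of membrane attack, fell from 246 ± 47.1 CPM (SD, n = 4) to 70.3 ± 32.0 CPM (SD, n = 4) (log2 fold change -1.80 with an SE of 0.35, adjusted p = 5.8e-04) and was higher than on day 7 on each later day (edgeR, adjusted p = 0.04, 0.0293 and 0.0172), calls that were lost in 9, 6 and 3 of 26 alternatives. Clu, Cd55 and Cd59b were not called on any day. On day 7, 6 of 6 smooth muscle markers were lower as well, and of 7 fibroblast markers 3 were lower and 2 higher. The part of these markers in the falls of Cd59a and Serping1 was not tested. Clu, the gene of clusterin, was at 847, 1393, 1277 and 1244 CPM on day 0 and 730.1, 649, 108 and 1390 on day 7. Colec12, a scavenger receptor with a collectin domain, was lower on day 7 (-0.94, adjusted p = 0.0202, lost in 4 of 26 alternatives) and was higher on day 21 than on day 7 (1.23, adjusted p = 0.00756). Cr1l, a regulator on the surface of rodent cells, was at 86.7 ± 33.1 CPM (SD, n = 4) on day 0 and 68.7 ± 24.0 CPM (SD, n = 4) on day 7 (adjusted p = 0.551).

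**Figure D4:**
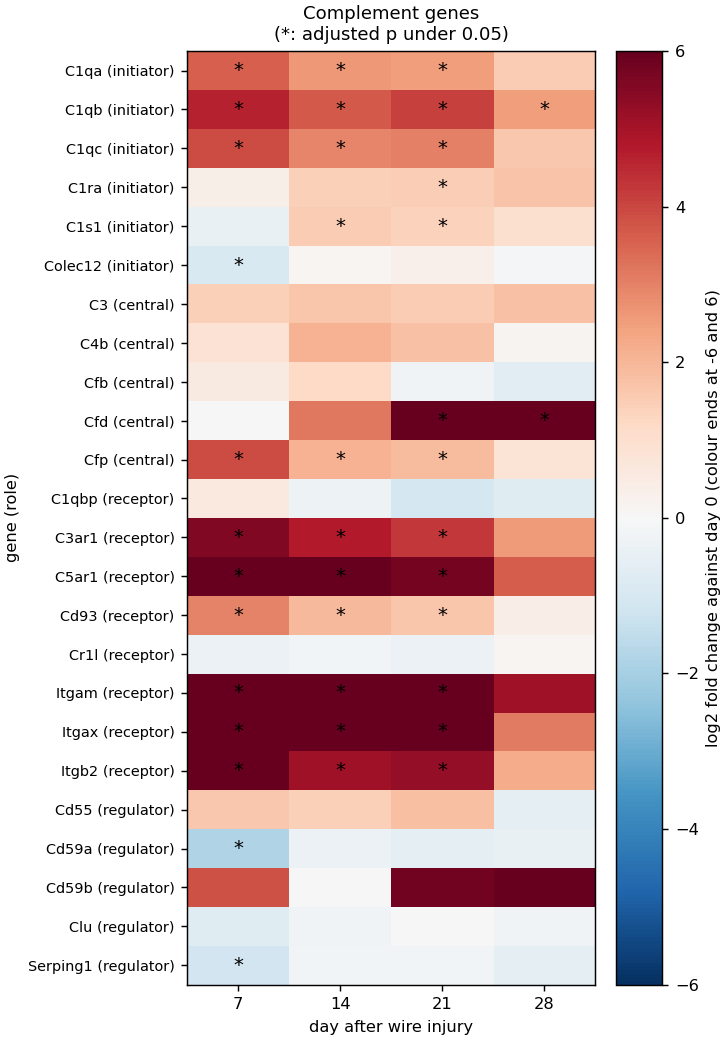
Fitted log2 fold change against day 0 (colour, ending at -6 and 6) of 24 complement genes (rows, with their role) on days 7, 14, 21 and 28 (columns), with an asterisk where the adjusted p from edgeR was under 0.05. Cfd, Itgam, Itgax and Cd59b had no count on day 0, so the depth of their colour depends on the fit. On day 7 the asterisks on blue are Colec12, Cd59a and Serping1.

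Outside the complement list, the genes whose log2 CPM had the highest Pearson correlation with a member over the 18 libraries were sought as a description. For C1qa they were Laptm5 (0.97), Csf1r (0.97) and H2-DMb1 (0.96), for C1qb Laptm5 (0.98), Lyz2 (0.95) and Mpeg1 (0.94) and for C1qc Laptm5 (0.97), Coro1a (0.96) and Csf1r (0.96). For C3ar1 they were Laptm5 (0.97), Coro1a (0.96) and Ms4a7 (0.95) and for C5ar1 Rac2 (0.95), Wdfy4 (0.94) and Ifi47 (0.94). Laptm5, a lysosomal protein of blood cells, thus led for all 3 C1q genes and for C3ar1. The other members had other partners, which were Mgp (0.87), Gdf10 (0.84) and Mxra8 (0.84) for C1ra, Pros1 (0.82), Srp54c (0.81) and Kcne4 (0.81) for C3, Lum (0.78) and Scara3 (0.77) for C4b and Mark1 (0.88), Timp3 (0.88) and Igfbp7 (0.86) for Serping1. Among the members, the C1q genes had pairwise correlations of 0.95, 0.95 and 0.95, and within days of 0.67, 0.68 and 0.69. C1ra, whose product binds C1q, had correlations of 0.05, 0.14 and 0.05 with them.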

How the data were processed

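RNA of 18 libraries was sequenced by MACE, a method for transcript 3′ ends with molecular identifiers. The authors removed PCR duplicates, cropped the reads, quantified them with Salmon 1.9.0 against mm39 and deposited the estimated counts of each gene, rounded to whole numbers. The authors also deposited normalised values, a signal made with DESeq2 1.36.0, which served in 1 alternative. Apart from the library's factor, these differed from the counts by a factor of 0.998 to 1.03 for C4b and not at all for the other members.

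The model was made from these counts with edgeR 4.0.16 in R 4.3.3 (filterByExpr by day, TMM, quasi-likelihood test, Benjamini-Hochberg adjustment). limma 3.58.1 and DESeq2 1.42.0 were alternatives, and the steps were tested on simulated data. Log2 CPM used a prior count of 2 and logs of sums a pseudocount of 1. Totals were 440675 to 878310 counts. Libraries of a day have separate mouse numbers, and 3 numbers occur on both day 0 and day 21, for which a block was fitted as an alternative. With this block, comparisons of days 7, 14 and 28 with day 0 rest mainly on day 0 replicate 1. Residual correlations of these pairs were -0.01 to 0.06, and those of libraries with the same replicate number had a median of -0.01 over 33 pairs. Intervals cover counting error only. Lists and rules for named genes (members, every other list gene called on any day, the 5 of highest CPM not called, and 3 genes most like each member) were chosen with earlier results of these data known. A few genes that these rules name are not reported here. Gene positions are from GENCODE on GRCm39.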

Additional observations from a re-analysis of the deposited data

Results flagged for a closer look

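Of 27 groups of 4 libraries (9 genes on days 0, 7 and 21), 8 held a library whose gap to its neighbour exceeded Dixon's 95% limit, which chance passes in about 5% of groups. C1qa in day 0 replicate 1, at 110.2 CPM, was the highest of its day, and the nearest library stood at 23.8. C3 in day 7 replicate 3, at 12.0 CPM, was the lowest of its day, and the nearest library stood at 297. C3 in day 21 replicate 3, at 702 CPM, was the highest of its day, and the nearest library stood at 159. C4b in day 0 replicate 1, at 228 CPM, was the highest of its day, and the nearest library stood at 34.1. C4b in day 21 replicate 3, at 629.8 CPM, was the highest of its day, and the nearest library stood at 117. C3ar1 in day 7 replicate 4, at 66.2 CPM, was the lowest of its day, and the nearest library stood at 153. C5ar1 in day 0 replicate 4, at 1.31 CPM, was the highest of its day, and the nearest library stood at 0. Serping1 in day 7 replicate 3, at 29.9 CPM, was the lowest of its day, and the nearest library stood at 142. The C5ar1 value is 1 count. The extremes of C3, C4b and Serping1 fell on 3 libraries, whose fibroblast sums were 3273 CPM in day 0 replicate 1, 959 in day 7 replicate 3 and 5319.9 in day 21 replicate 3.

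The effects of injury on days 28 and 7 differed for 5 genes in the direct test between these days from edgeR, by log2 values of -2.06 for C1qa, -2.11 for C1qb, -2.29 for C1qc, -2.98 for C3ar1 and -3.67 for C5ar1, each lower in all 3 day 28 libraries than in all 4 of day 7, out of 27 tests of members against day 7. C1ra differed by 1.38 (adjusted p = 0.0586), with all day 28 libraries above those of day 7.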

How the results depend on the processing

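Under the alternatives, 1555 values of the members' fold changes stayed on their side of the threshold, 19 lost a call and 63 gained 1, and no called change turned its direction. For members against day 0, the counts of 6, 5, 6 and 1 on days 7, 14, 21 and 28 became 6, 5, 5 and 1 with the replicate number as a block, a number that does not pair the libraries. With no filter on low counts, day 14 had 8 and day 28 7, and against day 7 the counts of 0 became 2 on day 14 and 4 on day 21. Calls over all genes rose as well without the filter, to 932 and 363 of 18049 on days 14 and 28, from 641 and 138 of 10312 with it. Against day 7 they also rose on days 14 and 21, on day 21 from 749 to 956. On day 28 DESeq2 gave 5, limma on the deposited normalised values 3, the mouse number block 0 and the fit without both libraries that stood apart 6, which gave 8 on day 14 and 1 on day 21 against day 7. Over all genes the day 28 calls of these settings were 318 of 12067, 160 of 10312, 3 of 10312 and 137 of 10102. For day 21 against day 7, DESeq2 gave 1 and a fit of only these days 3, where 987 of 9413 and 1047 of 7718 genes were called. Leaving out 1 library gave 6 to 7, 5 to 7, 5 to 7 and 1 to 4 against day 0, and 0 to 0, 0 to 1 and 5 to 6 against day 7 on days 14, 21 and 28. The count of day 28 against day 0 was 4 when day 0 replicate 1 was left out and 2 when it was day 7 replicate 3, and that of day 21 against day 7 was 1 without day 0 replicate 1 or day 7 replicate 4. For the 61-gene list, the counts of 14, 11, 13 and 2 ranged over 13 to 15, 9 to 12, 10 to 14 and 1 to 5 without 1 library, on day 28 with 5 without day 0 replicate 1 and 1 without day 0 replicate 3 or 4. Day 14 had 7 with the mouse number block, and day 28 had 0 with it, 6 with DESeq2, 10 with no filter, 1 with only 2 days in the fit and 7 without both libraries. The block called 199 of 10312 genes on day 14, and the fit of only 2 days 32 of 8362 on day 28. The cause was not tested. At this depth C5ar1, Itgam, Itgax and Cfd were at or near 0 counts on day 0, and genes below the filter were not tested.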

Other observations

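Cfd, which adipocytes are known to make in quantity, was set beside Car3 and Adipoq, further genes of fat tissue, which were picked after their values were seen. Car3 was at 11.8, 44.4, 59.2 and 2.33 CPM in the day 21 libraries and 124, 0 and 123 in those of day 28, where Cfd was at 69.8, 54.5, 141 and 4.65 and 93.4, 0 and 102. Both were at or near 0 in day 21 replicate 4 and at 0 in day 28 replicate 2, and high in day 28 replicates 1 and 3. Adipoq, the gene of adiponectin, had counts in 3 libraries, day 21 replicate 3 and day 28 replicates 1 and 3, at 3.29, 7.18 and 1.60 CPM. The part of fat tissue in the Cfd values was not tested.

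Among the list genes below the filter, Ptx3, a pentraxin that binds C1q, and Fcna, a ficolin of the lectin pathway, had most of their counts on day 7. Ptx3 had 59 counts in all, with 19, 19, 0 and 3 in the day 7 libraries, and Fcna had 36, with 4, 5, 15 and 8. Day 7 replicate 3 thus had the most counts of Fcna of its day and none of Ptx3. Mbl1, Mbl2, Crp and Apcs, which the liver makes, were listed at 0 in all libraries, and Hc, the gene of C5, had 2 counts.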
